A study of Homo sapiens with 17 samples.

Results

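The regions described here lie outside annotated genes: RNA stretches listed in a comparison of m6A and IgG pull-downs whose table entry names no exon, intron or promoter over them. They were chosen by that empty annotation alone, separately in each cell line, and numbered 12572 of 110260 listed regions in LNCaP (11.4%), 8866 of 77311 in 22Rv1 (11.5%) and 13646 of 139373 in HPr1AR (9.79%), in all 35084 of 326944. The choice used no measured value. LNCaP and 22Rv1 are prostate cancer cell lines, while HPr1AR cells are prostate epithelium that is not malignant. All cells were of WT genotype and received vehicle, and their RNA was pulled down with an m6A antibody or with IgG. The 17 samples fell into 6 groups of line and antibody, of 3 samples each, except that 22Rv1 had 2 m6A samples. The samples were called biological triplicates, but a table lists a single fold and p-value for a region, with nothing per sample, so all tests below measure counting error and not the spread between samples.

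N6-methyladenosine is a methyl mark that the METTL3 and METTL14 writer complex places on nascent RNA, mostly within a short sequence motif, and that YTH-domain proteins read. In mRNA it is known to be dense near stop codons and in long internal exons, but it also occurs on long non-coding RNAs, on transcripts that run past gene ends and on primary transcripts of microRNAs, where it has been described to mark hairpins for processing. A pull-down with IgG shows what the beads take up without the m6A antibody, and so follows the abundance of the RNA.

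Whole m6A and IgG reads of the window that represents each region were recovered from the deposited fold and p-value. The depths behind them were fitted as 3.92 M m6A and 8.87 M IgG reads in LNCaP, 3.30 M and 4.82 M in 22Rv1, and 5.13 M and 11.7 M in HPr1AR, where M stands for mega. A region was called higher or lower in m6A where its reads differed from these depths in an exact two-sided binomial test with a Benjamini-Hochberg adjusted p under 0.05 over all regions of the line. Coordinates are given as deposited; the submitters' processing notes name hg38, but most positions lie outside the GRCh38 spans of the genes annotated to them. The lines carried their markers. KRT5 and KRT14, the basal keratins, had 2 and 3 listed regions in HPr1AR and none in LNCaP and 22Rv1, TP63 had 71 in HPr1AR and none in the other lines, and FOLH1, which encodes prostate-specific membrane antigen, had 36 in LNCaP, 30 in 22Rv1 and none in HPr1AR. KLK3, which encodes prostate-specific antigen, had 2 regions in LNCaP, 4 in 22Rv1 and none in HPr1AR.

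Among the neighbouring genes within 10000 bp of the regions, nearest or not, were 164 microRNA genes, 50 of them in all 3 lines. Of the 164, 153 were found by symbol in the RefSeq sequence table. The mature sequences below belong to genes with at least 9 neighbouring regions of which none or all were higher in m6A, and to genes that border or lie within the long stretches described further on. They are shown because the regions beside them ranged from none to all higher in m6A. Capitals mark the seed, bases 2 to 8, by which a microRNA pairs with its targets. The first 3 share the seed of the let-7 family, and miR-221 and miR-222 share another. The sequences are from RefSeq, GRCh38.p14.
hsa-let-7a-5p: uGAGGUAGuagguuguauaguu
hsa-let-7f-5p: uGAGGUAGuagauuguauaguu
hsa-let-7d-5p: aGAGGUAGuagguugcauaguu
hsa-miR-221-3p: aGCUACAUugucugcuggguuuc
hsa-miR-222-3p: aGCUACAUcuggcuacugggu
hsa-miR-29c-3p: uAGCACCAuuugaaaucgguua
hsa-miR-30a-5p: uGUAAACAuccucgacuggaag
hsa-miR-138-5p: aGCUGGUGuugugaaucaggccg
hsa-miR-4674: cUGGGCUCgggacgcgcggcu
hsa-miR-4786-5p: uGAGACCAggacuggaugcacc
hsa-miR-4786-3p: uGAAGCCAgcucuggucugggc

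Regions outside genes were higher in m6A than in IgG in 6434 of 12572 cases in LNCaP (51.2%), against 38% of all listed regions of that line, in 6604 of 8866 in 22Rv1 (74.5%), against 54.3% of all, and in 8388 of 13646 in HPr1AR (61.5%), against 38% of all. The median log2 ratio of m6A to IgG reads outside genes was 2.40 in LNCaP, 2.55 in 22Rv1 and 2.61 in HPr1AR, against 1.40, 2.13 and 1.33 over all regions of these lines in the same order. Few were lower in m6A: 6 in LNCaP, 33 in 22Rv1 and 5 in HPr1AR, where 0.112%, 0.752% and 0.0911% of all regions were. With 0 m6A and 10 IgG reads a region did not pass in LNCaP or HPr1AR (adjusted p = 0.121 and 0.123, exact binomial test). Outside genes, 7433 regions in LNCaP and 7141 in HPr1AR had fewer than 10 reads in all, too few to be called lower. The authors' own adjusted p-value was under 0.05 for 96.2%, 99.6% and 97.9% of the regions outside genes and for 95.4%, 99.3% and 96.5% of all regions in LNCaP, 22Rv1 and HPr1AR.

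**Figure D1:**
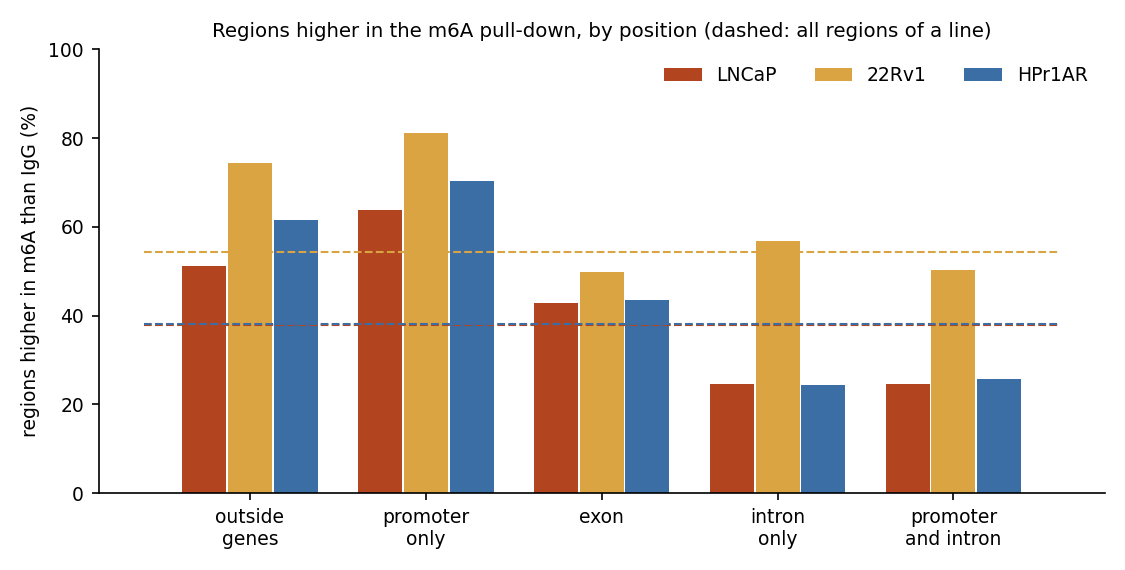
The bars give the percentage of regions higher in m6A than in IgG by position in the annotation for LNCaP, 22Rv1 and HPr1AR, and the dashed lines give it for all regions of a line (38%, 54.3% and 38%). Outside genes 51.2%, 74.5% and 61.5% were higher; regions that overlap a promoter and no exon or intron stood above them and regions in introns of LNCaP and HPr1AR far below.

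The position classes differed in IgG reads as well as in m6A reads. Outside genes the median region had 5 m6A and 2 IgG reads in LNCaP, 10 and 1 in 22Rv1 and 7 and 1 in HPr1AR. Exon regions had 8 m6A and 7 IgG reads in LNCaP, 11 and 5 in 22Rv1 and 9 and 8 in HPr1AR, and 42.8%, 49.8% and 43.5% of them were higher. Regions only in introns had 3 and 5 reads in LNCaP, 8 and 2 in 22Rv1 and 4 and 5 in HPr1AR, with 24.7%, 56.7% and 24.5% higher. No IgG read at all was found for 33.1%, 40.3% and 35.7% of the regions outside genes, against 6.43%, 8.28% and 4.66% of the exon regions. A region without IgG reads can be listed only through its m6A reads. In LNCaP 4 m6A and 0 IgG reads were enough for the call. Such regions are part of every share of regions higher in m6A given here. The median region outside genes was 230 bp wide in LNCaP and 210 bp in 22Rv1 and HPr1AR, against 400, 330 and 380 bp over exons.

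With fewer than 50 reads, a larger share was higher outside genes than over exons in every bin of reads and every line. Of the regions with 10 to 14 reads in both pull-downs together, 52.5% outside genes and 19.6% over exons were higher in LNCaP, 73.9% and 28.7% in 22Rv1, and 61.1% and 19.5% in HPr1AR. With 50 reads or more the shares were 90.0% outside genes and 91.0% over exons in LNCaP, 95.1% and 91.2% in 22Rv1, and 94.1% and 89.0% in HPr1AR. The order of the lines changed with a lowest read rate but not with a lowest number of reads. With at least 10 reads, 84.0% of the regions outside genes were higher in 22Rv1, 74.9% in HPr1AR and 68.9% in LNCaP. That is the order found without a minimum. A rate asks for more reads in a deeper line, and the share higher rose with the reads. At or above 0.739 CPM over both pull-downs, a rate that 99% of all listed regions reach in 22Rv1 and fewer in the other tables, 3542 of 5139 regions outside genes were higher in LNCaP (68.9%, all regions 50.7%), 6554 of 8736 in 22Rv1 (all regions 54.6%) and 3549 of 4142 in HPr1AR (85.7%, all regions 60.3%).

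**Figure D2:**
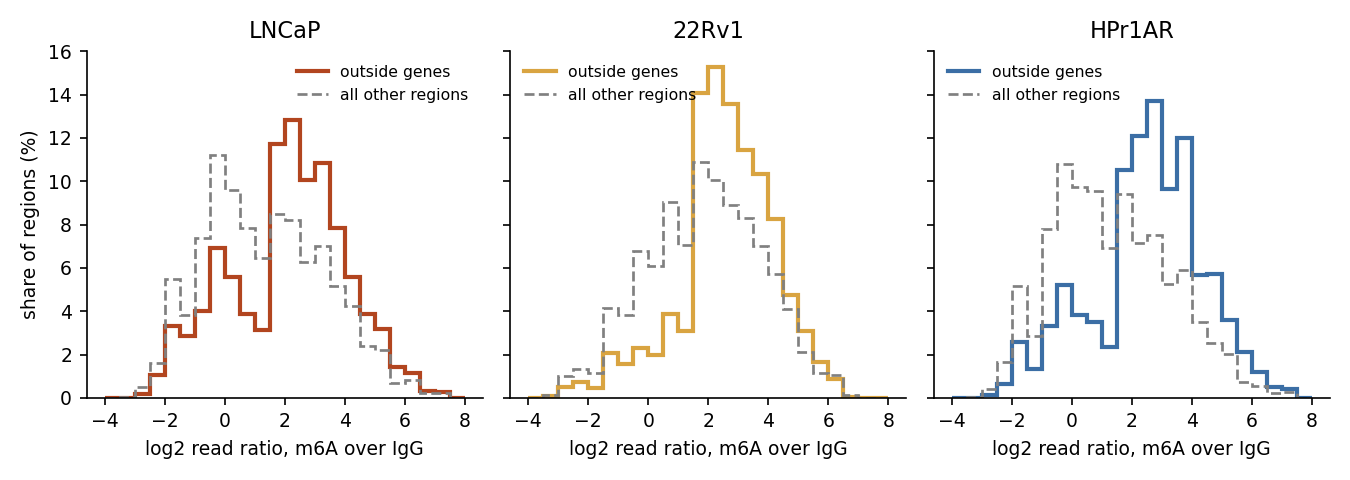
Each panel gives the share of regions, in percent, by the log2 ratio of m6A to IgG reads in steps of 0.5, for regions outside genes (solid) and all other regions (dashed). Regions with at most 3 reads in each pull-down have no ratio, and 0 reads of either pull-down were set to 3. The regions outside genes peak above 2 in every line, with a smaller group near 0 in LNCaP and HPr1AR. That group includes regions with 0 m6A reads: in LNCaP, 0 m6A and 8 IgG reads stand at -0.24.

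The regions with the smallest adjusted p-values had about 60 m6A reads and almost no IgG reads, and some lay between genes that run towards each other. In LNCaP the region at chr16:27233341-27236130 had 60 m6A and 0 IgG reads, a log2 ratio of at least 5.50 with 0 counted as 3 reads (adjusted p = 2.45e-27, exact binomial test). It lies past the last exon of KDM8, a JmjC-domain oxygenase, and 185 bp past that of NSMCE1, a subunit of the SMC5 and SMC6 complex, which is coded on the other strand. A region with 60 m6A and 0 IgG reads stood 8598 bp beyond CSNK2A1, the catalytic subunit of casein kinase 2, and one with 70 and 4 reads 5443 bp beyond EXOSC7, a subunit of the RNA exosome (log2 ratio 5.31, 95% exact interval 3.89 to 7.22).

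In 22Rv1, chr2:85541411-85543150, one of 3 regions with the same smallest adjusted p, had at least 64 m6A and 0 IgG reads (log2 ratio at least 4.96, adjusted p = 1.40e-21, exact binomial test). It lies between TCF7L1, a transcription factor of the Wnt pathway, and TGOLN2, a protein of the trans-Golgi network, 1991 bp away, downstream of both. A region 2789 bp before ZNF875, a zinc finger gene, had at least 63 m6A and 0 IgG reads. In HPr1AR a region 2449 bp past ARID3B, a DNA-binding protein, and before CLK3, a kinase of splicing factors, had 58 m6A and 0 IgG reads (chr15:74892921-74895610, log2 ratio at least 5.46, adjusted p = 2.63e-26, exact binomial test). Another with 57 and 0 reads lay 1557 bp past MBD3, a subunit of the NuRD complex. One with 56 and 0 stood 2249 bp before IL6R, the interleukin-6 receptor. About 60 m6A reads is where recovery often ended, with a deposited p-value of 0 or no pair of counts that met it, so these regions cannot be ranked among themselves.

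Only a few regions were lower in m6A, a call that regions of few reads could not reach in LNCaP and HPr1AR. In 22Rv1 the strongest was chr19:53727641-53727880, 8286 bp past ZNF818P, with 4 m6A and 29 IgG reads (log2 ratio -2.31, interval -4.28 to -0.80, adjusted p = 0.00193, exact binomial test). A region 2834 bp past HGF, hepatocyte growth factor, had 1 m6A and 19 IgG reads in 22Rv1 (log2 ratio -3.70, interval -9.08 to -1.05). In HPr1AR the strongest, on chromosome X with no exon near it, had 14 m6A and 72 IgG reads (log2 ratio -1.17, interval -2.11 to -0.33). The 3 named LNCaP regions that were lower had 2 m6A and 24 IgG reads, 2 and 23, and at least 1 and 20. At an adjusted p of 0.01 these 3 and the 3 named regions of HPr1AR were no longer called.

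Relative to the nearest gene, regions outside genes lay past its end more often than before its start. Of those with an exon within 10000 bp, 4044 of 5888 were downstream in LNCaP (68.7%), 3262 of 4388 in 22Rv1 (74.3%) and 4632 of 6246 in HPr1AR (74.2%). Part of this follows from the annotation: the promoter mark takes up the first 2000 bp before a gene, so upstream regions stood more than 2000 bp away and the nearest downstream one at 1 bp. The remaining 6684 regions in LNCaP, 4478 in 22Rv1 and 7400 in HPr1AR had no exon within that distance and are called isolated here.

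Far past the gene end more regions were higher, and more had no IgG read, than close to it. Within 1000 bp downstream, 46.0% of regions were higher in LNCaP, 64.4% in 22Rv1 and 46.7% in HPr1AR. Between 7500 and 10000 bp downstream it was 55.1%, 79.3% and 65.3%. The share without any IgG read was 22.6%, 29.4% and 18.7% within 1000 bp and 39.3%, 40.5% and 40.3% at 7500 to 10000 bp, in the same order of lines. Both shares rest in part on the same regions, those listed through their m6A reads alone. Upstream, 57.2%, 77.9% and 66.7% of the regions were higher, with 55.6% to 58.7%, 75.1% to 80.6% and 63.4% to 69.0% over 4 bins of distance, and among isolated regions 50.8%, 77.0% and 65.6%. Over 3000 to 10000 bp, where both sides are listed in full, 1864 regions were downstream and 1403 upstream in LNCaP, 1451 and 871 in 22Rv1 and 2222 and 1268 in HPr1AR. The downstream and upstream shares higher in m6A at this distance were 52.0% and 57.2% in LNCaP, 74.8% and 77.5% in 22Rv1 and 57.7% and 66.7% in HPr1AR. No test was made of these differences, because regions in the flank of one gene are not independent.

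**Figure D3:**
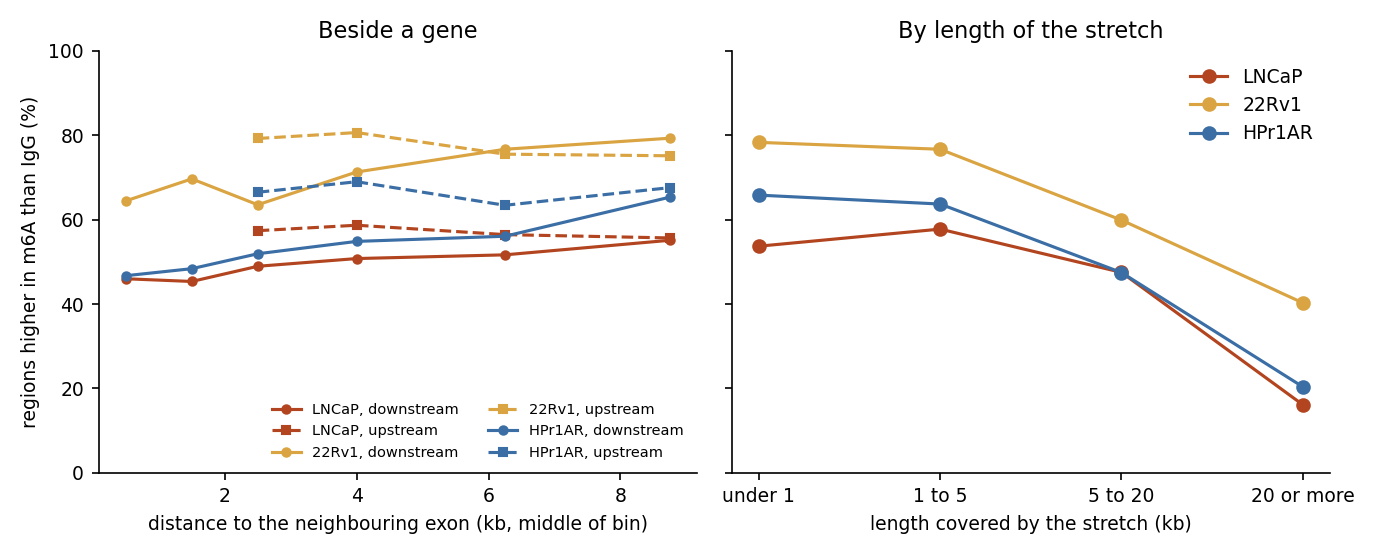
The left panel gives the percentage of regions higher in m6A against the distance in kb to the neighbouring exon, downstream (solid) and upstream (dashed), for LNCaP, 22Rv1 and HPr1AR. The right panel gives it by the length that the listed regions of a stretch cover in that line; it drops to 16.1%, 40.3% and 20.4% for stretches of 20 kb or more.

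Regions outside genes also followed one another in long runs. Regions of the 3 tables with gaps of up to 10000 bp were joined into stretches, and the length covered by the listed regions was counted in each line. Stretches that covered 20 kb or more numbered 11 in LNCaP, 7 in 22Rv1 and 11 in HPr1AR and held 1041, 360 and 471 regions, of which 168, 145 and 96 were higher (16.1%, 40.3% and 20.4%). In stretches under 1 kb, 53.7%, 78.3% and 65.8% were higher. The median region of the long stretches had 3 m6A and 8 IgG reads in LNCaP, 7 and 4 in 22Rv1 and 4 and 7 in HPr1AR. With the depths allowed for and 0 reads of either pull-down counted as 3, their median log2 ratio was -0.04 in LNCaP, 1.61 in 22Rv1 and 0.38 in HPr1AR. With 10 to 14 reads, 6.51%, 28.0% and 5.13% of their regions were higher, against 59.3%, 75.8% and 64.0% in shorter stretches. With 50 reads or more 73.1%, 96.2% and 96.8% were, against 93.0%, 95% and 93.9% in shorter stretches. At that read number the share was lower in the long stretches of LNCaP only.

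Within the long stretches the regions called higher were 1525 bp wide at the median in LNCaP, 690 bp in 22Rv1 and 1105 bp in HPr1AR, against 290, 180 and 220 bp for the other regions of the same stretches. The regions called higher held 23.5 m6A and 4 IgG reads in LNCaP, 20 and 2 in 22Rv1 and 21 and 4 in HPr1AR. The other regions held 2 and 8, 5 and 6, and 3 and 7. The split by the call itself fixes a difference in reads, so these values describe the regions and were not tested.

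Several long stretches were found in 1 line and had no listed region in the other tables: 4 of those in LNCaP, 1 in 22Rv1 and 5 in HPr1AR. The longest lay between CWC22, a splicing factor, and UBE2E3, an E2 ubiquitin-conjugating enzyme, at chr2:181378511-181842540. It covered 255 kb in LNCaP with 207 regions, 40 of them higher. In 22Rv1 it covered 24.6 kb with 54 regions, 24 of them higher, and in HPr1AR it had 1 region of 3 m6A and 3 IgG reads. Between these genes RefSeq places the long non-coding RNA genes EPCART, SCHLAP1 and UBE2E3-DT, and SCHLAP1 is known as an antagonist of SWI/SNF in aggressive prostate cancer. The 3 widest regions of LNCaP all belonged to it, each 4990 bp wide, with at least 63, 62 and 61 m6A and 24, 18 and 12 IgG reads (log2 ratios of 2.57, 2.96 and 3.52 at these smallest reads).

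The second stretch by length surrounded FOXA1, the pioneer factor that opens chromatin for the androgen receptor, between MIPOL1 and SSTR1 on chromosome 14. It covered 183 kb in LNCaP with 203 regions, 21 of them higher, and the median region had 3 m6A and 8 IgG reads. In 22Rv1 it covered 7.49 kb with 17 of 28 regions higher, and in HPr1AR 8.64 kb with 15 of 29 higher. Its region with the smallest adjusted p had at least 60 m6A and 8 IgG reads in LNCaP, at least 59 and 6 in 22Rv1, and 55 and 8 in HPr1AR. RefSeq places TTC6 and LINC00517 beside FOXA1.

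Stretches with regions in LNCaP alone lay between SVIP and LUZP2 on chromosome 11 (137 kb covered, 7 of 158 regions higher), between KLHL1 and DACH1 on chromosome 13 (72.5 kb, 9 of 122), between PRKD1 and G2E3 on chromosome 14 (45.3 kb, 12 of 73) and between PMCHL2 and BDP1 on chromosome 5 (31.6 kb, 6 of 49). RefSeq places LINC02718, LINC02726 and LINC02686 among others in the first of these gaps and LINC00348 in the second. The stretch between LINC00898 and TAFA5 on chromosome 22, where RefSeq has the long non-coding RNA EPIC1, had 30 of 126 regions higher in LNCaP and 35 of 60 in 22Rv1 and was not listed in HPr1AR. The one found in 22Rv1 alone lay between ANKRD30A and ZNF248 on chromosome 10, with LINC00993 in the gap. It covered 86.0 kb with 18 of 117 regions higher and held 6 of the 33 regions that were lower in 22Rv1.

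**Figure D4:**
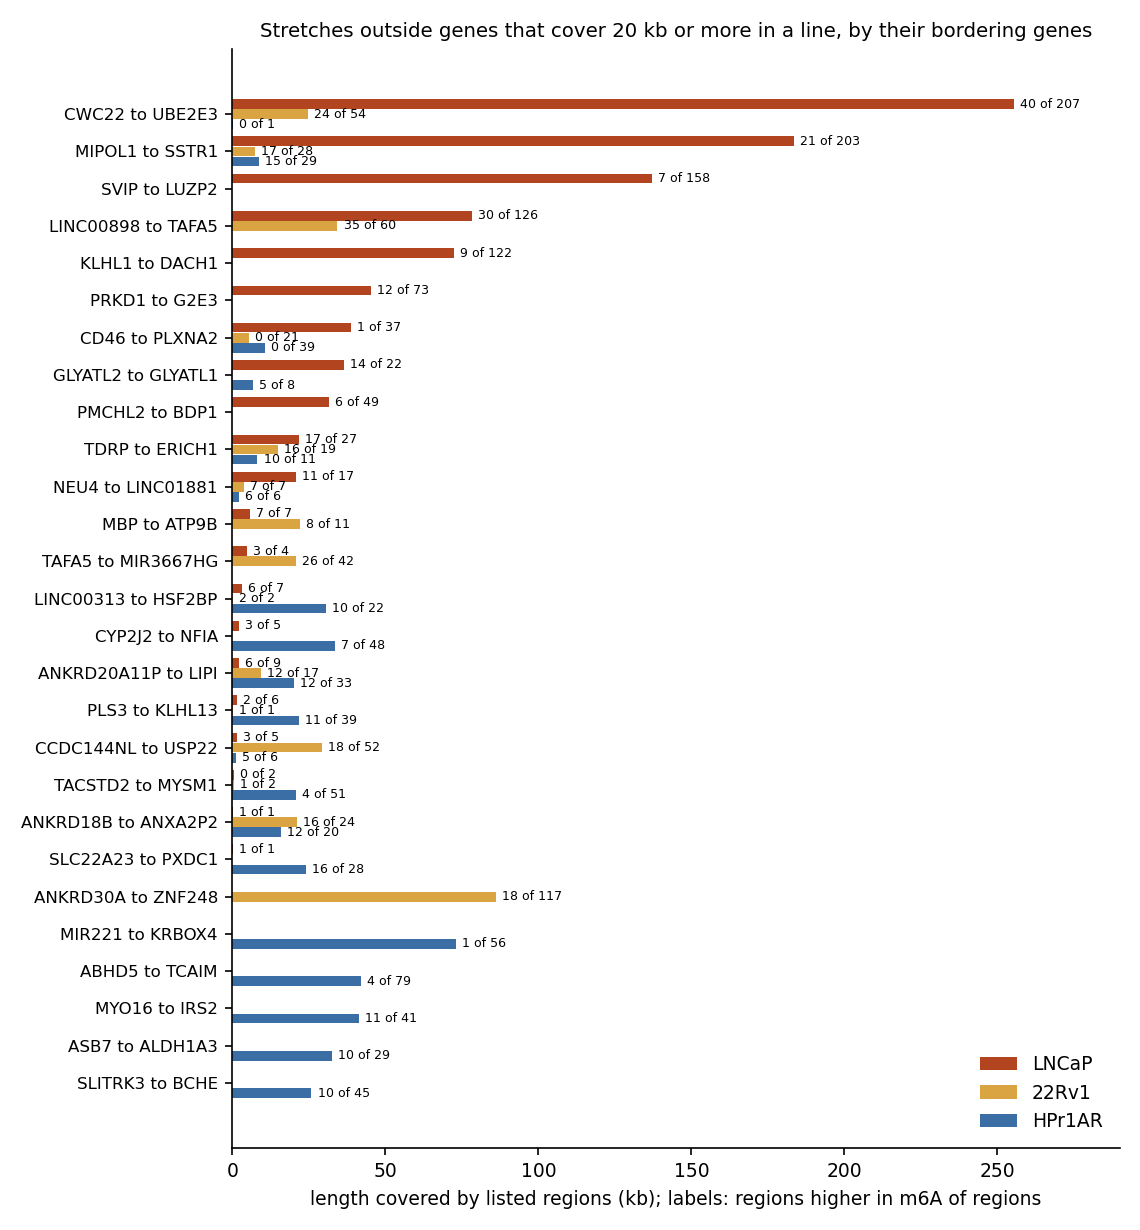
Bars give the length in kb covered by listed regions in LNCaP, 22Rv1 and HPr1AR, for every stretch outside genes that covers 20 kb or more in at least 1 line, named by the nearest gene with a listed region on each side. The labels give how many of its regions were higher in m6A; 40 of 207 were in LNCaP between CWC22 and UBE2E3, and 1 of 56 in HPr1AR beside MIR221.

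The stretches found in HPr1AR alone included 2 at microRNA genes. The first begins beside MIR221 and MIR222, the pair of microRNAs that share a seed and are known to target the cell cycle inhibitor p27, at chrX:45608761-45711130. It covered 73.0 kb with 56 regions, and 1 was higher, at 102 kb from the microRNA end of a stretch of 102 kb, with 37 m6A and 13 IgG reads (log2 ratio 2.70, interval 1.75 to 3.74, adjusted p = 4.77e-09, exact binomial test). The 3 regions within 10000 bp of the microRNAs had 11, 7 and 11 m6A and 15, 14 and 20 IgG reads, with log2 ratios of 0.19 to 0.74. The second holds MIR138-1 between ABHD5 and TCAIM on chromosome 3, with 79 regions, 4 of them higher. Of the 5 within 10000 bp of MIR138-1, the 4 upstream had 0 to 5 m6A and 3 to 7 IgG reads, and the downstream one at least 59 and 8 (log2 ratio 4.07 at these smallest reads). The other HPr1AR stretches lay between MYO16 and IRS2 (11 of 41 higher), SLITRK3 and BCHE (10 of 45) and ASB7 and ALDH1A3 (10 of 29), the last gene an enzyme of retinoic acid synthesis.

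A stretch with a single m6A call, long in LNCaP, was listed in all lines. It lies between CD46 and PLXNA2 on chromosome 1, where RefSeq has MIR29B2CHG, the host transcript of MIR29B2 and MIR29C, at chr1:207971641-208042510. In LNCaP 1 of 37 regions was higher, with 24 m6A and 22 IgG reads, and in 22Rv1 and HPr1AR none of 21 and 39. The miR-29 family is known to restrain collagen genes. Within 10000 bp of MIR29C the LNCaP regions had 0 to 8 m6A and 2 to 15 IgG reads, those of 22Rv1 0 and 5 against 9 and 5, and those of HPr1AR 0 to 3 against 4 to 12. In 22Rv1 the region with 0 m6A and 9 IgG reads was lower in m6A (adjusted p = 0.0352, exact binomial test).

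The flank of the let-7 cluster looked alike in LNCaP and HPr1AR. The let-7 family is known to repress RAS, MYC and HMGA2. MIRLET7A1 and MIRLET7F1 shared their neighbouring regions, all upstream, so that their values are the same, and MIRLET7D had part of them. In LNCaP the 8 regions had 4, 2, 0, 2, 0, 3, 1 and 0 m6A reads, in the order in which they approach the cluster, against 7, 6, 9, 8, 10, 12, 10 and 7 IgG reads. In HPr1AR the 7 regions had 7, 4, 3, 1, 0, 0 and 1 m6A reads against 10, 6, 12, 12, 8, 10 and 11 IgG reads. In both lines the m6A reads reached 7 at most and the IgG reads lay between 6 and 12, and none of these regions passed the test in either direction. In these lines even 0 m6A and 10 IgG reads do not pass as lower, as given above. The 2 regions of 22Rv1 had 3 and 6 m6A against 4 and 1 IgG reads and did not pass the test.

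MIR30A had 9 neighbouring regions, in HPr1AR alone, with 1 to 5 m6A and 2 to 11 IgG reads and none higher. The regions beside MIR4674 and MIR4786 were the reverse. Those near MIR4674, upstream of it and of NOTCH1, were higher in 5 of 5 cases in LNCaP, 3 of 3 in 22Rv1 and 5 of 5 in HPr1AR. They had 5 to 19 m6A and 0 or 1 IgG reads in LNCaP, 7 to 13 and 0 or 1 in 22Rv1, and 6 to 27 and 0 to 2 in HPr1AR. MIR4786 had 3, 4 and 5 regions in these lines, all higher, with 6 to 9, 12 to 40 and 7 to 31 m6A reads and at most 3 IgG reads. These genes were picked for having no or all regions higher, so the contrast describes them and tests nothing.

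**Figure D5:**
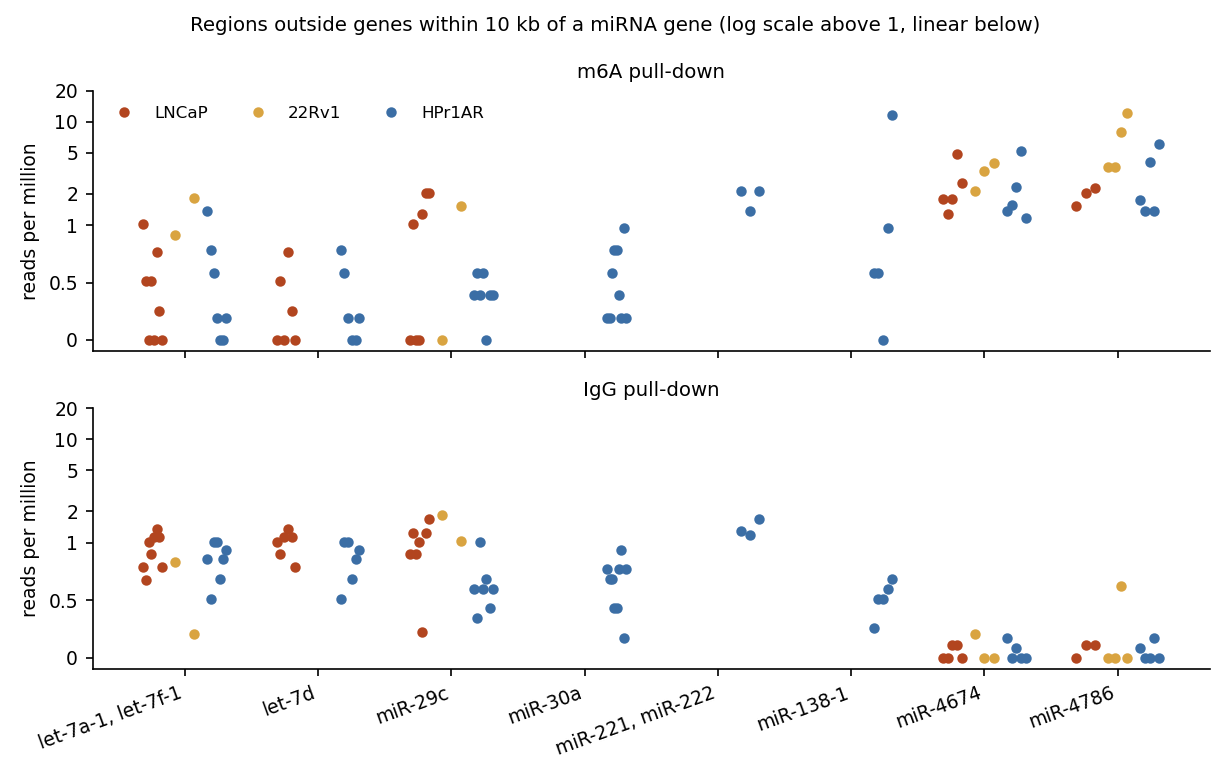
Each point is a region outside genes within 10 kb of the named microRNA gene, with its m6A reads (top) and IgG reads (bottom) scaled to depth (CPM), in LNCaP, 22Rv1 and HPr1AR; the scale is logarithmic above 1 and linear below. Beside let-7d no region exceeds 4 m6A reads and none has fewer than 6 IgG reads, while beside miR-4674 and miR-4786 none has fewer than 5 m6A or more than 3 IgG reads.

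Taking all small structured RNA genes as neighbours, 94 of 229 regions were higher in LNCaP (41.0%), 109 of 167 in 22Rv1 (65.3%) and 120 of 265 in HPr1AR (45.3%). These shares lay below those of all regions outside genes. Neighbours of zinc finger genes had 178 of 354 regions higher in LNCaP (50.3%), 193 of 262 in 22Rv1 (73.7%) and 174 of 311 in HPr1AR (55.9%), and neighbours of long non-coding RNA genes 215 of 430, 237 of 319 (74.3%) and 270 of 450. Protocadherin genes, adhesion proteins coded in tandem clusters, had 8 of 12 (66.7%), 15 of 15 and 8 of 11 (72.7%) regions higher, against 51.2%, 74.5% and 61.5% of all regions outside genes.

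Prostate and androgen-responsive genes had 15 of 41 neighbouring regions higher in LNCaP (36.6%), 5 of 14 in 22Rv1 (35.7%) and 6 of 10 in HPr1AR, against 51.2%, 74.5% and 61.5% outside genes and 38%, 54.3% and 38% of all listed regions. In LNCaP a region 9791 bp before KLK3 had at least 60 m6A and 6 IgG reads (log2 ratio 4.50 at these smallest reads), and one 2716 bp before FOXA1 had 44 and 8 (log2 ratio 3.64, interval 2.53 to 4.94). In 22Rv1 a region 697 bp past FOLH1 had 63 m6A and 10 IgG reads. Before GATA2, a partner of the androgen receptor, regions were higher in every line: the strongest had 60 m6A and 24 IgG reads in LNCaP, 32 and 7 in 22Rv1 and at least 58 and 4 in HPr1AR.

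Immediate early and stress genes had 9 of 13 regions higher in LNCaP (69.2%), 8 of 9 in 22Rv1 (88.9%) and 17 of 28 in HPr1AR (60.7%), beside the same shares of 51.2%, 74.5% and 61.5% outside genes, against which the lists below are also to be read. The region before ATF3, a stress-induced transcription factor, had at least 58 m6A and 1 IgG reads in LNCaP, 49 and 3 in 22Rv1 and 27 and 3 in HPr1AR. In 22Rv1 a region 4665 bp before MYC had 19 m6A and 1 IgG reads. Basal epithelial genes had 4 of 4, 4 of 4 and 11 of 22 regions higher, and the 3 strongest of LNCaP lay before NOTCH1 and are those described beside MIR4674. The strongest of HPr1AR lay 2125 bp before S100A2 with 41 m6A and 2 IgG reads and 1974 bp past CDH3, which encodes P-cadherin, with 31 and 1. Histone genes, chosen by symbol, had 12 of 23 (52.2%), 8 of 11 (72.7%) and 14 of 32 (43.8%). The symbols took in the linker histone gene H1-10 and also H1-10-AS1, an antisense RNA gene and no histone gene. The 3 strongest regions of this list in 22Rv1 were nearest to H1-10-AS1. A region between H2BC10, H3C8 and H4C8 had 50 m6A and 4 IgG reads in LNCaP and 55 and 4 in HPr1AR. Retinoid and nuclear receptor genes had 4 of 6, 2 of 2 and 4 of 6. The region between CRABP2, which carries retinoic acid to its receptor, and ISG20L2 had 20 m6A and 2 IgG reads in LNCaP, 25 and 1 in 22Rv1 and 38 and 4 in HPr1AR.

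Most genes had 1 neighbouring region: 1709 of 3098 in LNCaP, 1461 of 2495 in 22Rv1 and 1933 of 3390 in HPr1AR. The genes with most differed in what those regions showed. PMCHL2 had 14 in LNCaP, none of them higher, and KMT2E-AS1 had 11 in HPr1AR, all downstream and none higher. LOC100506123 had 11 in LNCaP, 9 of them higher, and 10 in HPr1AR, all higher and all upstream. NBEAP1 had 11 in LNCaP with 1 higher. In 22Rv1 ZFAND2A, a zinc finger protein induced by arsenite, had 11 with 9 higher, FBXO25, an F-box protein, 10 with 3 higher, and AMD1, an enzyme of polyamine synthesis, 9 with 2 higher.

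Across lines, the regions that recurred were higher in m6A more often than those of a single line. The regions formed 24492 loci, of which 18182 were in 1 table (74.2%), 3715 in 2 and 2595 in all 3 (10.6%), and 1781 of the last were higher in all 3 (68.6%). Regions in loci of a single table were higher in 37.0% of cases in LNCaP, 66.4% in 22Rv1 and 54.9% in HPr1AR. Regions in loci of all tables were higher in 73.0%, 79.4% and 75.7%. These regions were not matched for reads or width. In LNCaP the share higher outside genes rose from 38.9% with 0 to 9 reads to 90.0% with 50 or more. As a share of each list, 33.3% of the LNCaP regions overlapped a listed region of 22Rv1 and 36.7% one of HPr1AR. Of the 22Rv1 regions 55.0% and 45.2% overlapped one of LNCaP and HPr1AR, and of the HPr1AR regions 35.6% and 27.6% one of LNCaP and 22Rv1. At or above 0.739 CPM in both tables the share of LNCaP in 22Rv1 was 51.1% and that of 22Rv1 in LNCaP 38.8%, which turned the order of this pair round. The other pairs turned too: 32.1% for LNCaP in HPr1AR and 40.7% for HPr1AR in LNCaP, and 27.9% for 22Rv1 in HPr1AR and 48.5% for HPr1AR in 22Rv1. The rate left 5139 regions outside genes in LNCaP, 8736 in 22Rv1 and 4142 in HPr1AR, so the shortest list changed from 22Rv1 to HPr1AR. In every pair, with the rate and without it, the longer list had the smaller share. The turn therefore follows the list lengths and is no measure of sharing between lines.

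Of the 8 loci named among those higher in all lines, most lay downstream of their nearest gene. This was not so of all 1781 such loci: 764 were downstream, 664 isolated and 306 upstream, and the others had mixed positions. At chr2:242709251-242711940, past D2HGDH, an enzyme that clears D-2-hydroxyglutarate, LNCaP had at least 58 m6A and 1 IgG reads, 22Rv1 at least 62 and 0, and HPr1AR 44 and 0. Between EPN1, an endocytic adaptor, and NLRP9, which run towards each other, the reads were at least 59 and 4 in LNCaP, 60 and 0 in 22Rv1 and at least 57 and 2 in HPr1AR. Between HEBP2 and NHSL1, also convergent, they were at least 59 and 5, 58 and 0, and 57 and 2. Each of these 3 loci lies past the end of at least 1 gene.

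Past PSMD7, a subunit of the proteasome lid, LNCaP had at least 57 m6A and 0 IgG reads, 22Rv1 62 and 1, and HPr1AR at least 57 and 3. The locus between TCF7L1 and TGOLN2, described above for 22Rv1, had at least 60 and 6 reads in LNCaP and at least 58 and 7 in HPr1AR. Past ZNF101 the reads were at least 58 and 2 in LNCaP, 60 and 0 in 22Rv1 and at least 58 and 7 in HPr1AR. The exceptions were a locus between FAM111B and FAM111A, which are proteases, nearest to FAM111A and before its start but also past FAM111B, and an isolated one on chromosome 7. The first had at least 60 and 6 reads in LNCaP, at least 59 and 0 in 22Rv1 and at least 57 and 3 in HPr1AR. The second had at least 58 and 1, at least 63 and 1, and 43 and 0.

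Not every wide region was rich in m6A. In HPr1AR the second widest region outside genes, 4920 bp between CHRAC1 and AGO2, the Argonaute that cleaves targets of microRNAs, had 5 m6A and 8 IgG reads (log2 ratio 0.51, interval -1.45 to 2.31, adjusted p = 0.901, exact binomial test). The widest, 4960 bp starting 223 bp past REL, a subunit of NF-kappaB, had 35 and 12 reads (log2 ratio 2.73, interval 1.75 to 3.82). The third, 4790 bp on chromosome 9 with no exon near, had 35 and 1. In 22Rv1 the 3 widest had at least 61 and 1, 56 and 6, and 61 and 1 reads, the last in front of ZNF875.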

How the data were processed

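Cells of 3 lines were pulled down with an m6A antibody (EpiMark kit) or IgG, per the labels' protocols. For every line the authors deposited a table whose rows are each a run of neighbouring windows with a log2 fold of its representative window, p-values and adjusted p-values, window counts and the overlapping and neighbouring genes, per the file headers. Which pull-down was divided by which is not stated, and the numerator was taken as m6A after the names of the tables. The sources used here do not give the aligner, the window counter or the test. The labels' protocols call the libraries prepared from purified DNA, and some samples' descriptions name the table of another line than their titles; the titles and line labels were used. Per the submitters' processing notes the build is hg38, but only 14.0%, 12.9% and 13.5% of the regions annotated to a gene (LNCaP, 22Rv1 and HPr1AR) lie within its GRCh38 span. Coordinates are therefore given as deposited, of a build that is not known, no region sequence was read, and RefSeq GRCh38.p14 served for names and for which genes lie between others. The labels' replicate 2 of 22Rv1 m6A is not analysed here, and whether it entered the table is not known.

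By its values, the deposited log2 fold follows log2 of the m6A reads plus a prior minus 2 times log2 of the IgG reads plus a prior, and the p-value a likelihood ratio test times a fitted scale. From both, whole reads were recovered for 98.5%, 95.6% and 100% of the regions with p above 0 in LNCaP, 22Rv1 and HPr1AR. Among regions outside genes, 212, 3 and 249 had a p-value listed as 0 and 77, 76 and 0 had no pair of counts; their reads are the smallest that reach the deposited p, marked "at least", for m6A and IgG reads alike. In 3.03%, 0.0226% and 0.0806%, more than 1 pair was possible and the nearest was taken. Among the regions named above these include the LNCaP regions past EXOSC7, before FOXA1 and before GATA2. They also include the LNCaP region higher between CD46 and PLXNA2 and the strongest lower region of HPr1AR, on chromosome X. The intervals do not cover this choice of pair. The procedure was tested on simulated data. Regions were tested by an exact two-sided binomial test with Benjamini-Hochberg adjustment at 0.05 over the whole table. Intervals are Clopper-Pearson at 95% and, with the floor of 3 reads for 0, cover counting error only. In every ratio 0 reads of either pull-down, m6A or IgG, were counted as 3. No ratio is given where both pull-downs have at most 3 reads. PCR duplicates could not be told apart from separate molecules. Shares are described without a test.

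The regions and gene lists were chosen with earlier results of these data known. Named regions are, per line, the 8 with the smallest adjusted p that were higher and 3 that were lower, the 3 widest, the 8 strongest loci higher in all lines, the 3 genes with most regions and up to 3 regions per gene list, of which a selection is given; the stretches and microRNA genes were chosen after their values were seen. Alternatives were other thresholds, read minimums, distances and joining gaps. Of the columns holding values per sample, 0 were left unused. Python 3, numpy, scipy, pandas and matplotlib were used.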

Additional observations from a re-analysis of the deposited data

How the results depend on the processing

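No paired analysis was possible because the tables hold no value per sample, and for the same reason no replicate could be left out. With the authors' adjusted p in place of the read test, 12088 regions outside genes were called in LNCaP and 13358 in HPr1AR. With at least 10 reads, 3542 were higher in LNCaP and 4873 in HPr1AR, and at or above the shared rate of 0.739 CPM 3542 and 3549. Downstream regions numbered 833, 762 and 895 in LNCaP, 22Rv1 and HPr1AR within 1000 bp, and 1616 in LNCaP and 1361 in HPr1AR at the shared rate; both settings leave fewer regions. With stretches joined over gaps of 5000 bp, those of 20 kb or more held 187 regions in 22Rv1 and 300 in HPr1AR. The share of LNCaP regions listed in 22Rv1 was 17.0% with a reciprocal overlap of 50%, 51.1% at the shared rate and 44.9% among regions higher in both. For LNCaP in HPr1AR it was 18.1%, 32.1% and 43.2%, and 35.8% against regions outside genes only. For 22Rv1 in LNCaP these 4 values were 24.2%, 38.8%, 50.9% and 51.3%, and for 22Rv1 in HPr1AR 20.9%, 27.9%, 43.8% and 42.7%. For HPr1AR in LNCaP the overlap, rate and outside settings gave 16.7%, 40.7% and 33.7%, and for HPr1AR in 22Rv1 all 4 gave 13.6%, 48.5%, 32.7% and 26.8%. At an adjusted p of 0.01, 46 of 53 named regions stayed on their side of the threshold and 7, all lower in m6A, lost their call. The setting of the stretches was added after the data were seen. The cause of the other changes was not tested.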
